A study of Mus musculus with 9 samples.

Results

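A set of 9 genes known as surface, cytoskeletal and secreted products of M cells were followed here: Gp2, Tnfaip2, Marcksl1, Anxa5, Aif1, Rac2, Scg5, Clu and Prnp. They were picked by symbol from a table of nascent transcription, where they were 9 of 24505 genes, and all 9 passed the filter on low values that left 16563 genes to test. Regions of the histone mark H3K27me3 were added where the authors' annotation named one of the 9 genes, which gave 5 of the 35798 regions higher in the M cell culture and 2 of the 13607 higher in the stem cell culture.

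M cells are epithelial cells that lie over the lymphoid follicles of the gut and carry particles from the lumen to the immune cells below. The cytokine RANKL, acting through its receptor RANK (Tnfrsf11a), drives their differentiation from intestinal stem cells, with Spib and Sox8 among the transcription factors involved. Gp2, an apical glycoprotein that binds bacterial fimbriae, marks the mature M cell, while Marcksl1 and Tnfaip2 are commonly used as earlier or broader markers.

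The cells were mini-guts, organoids grown from mouse duodenum. GRO-seq, a run-on assay that sequences RNA as polymerases lengthen it in isolated nuclei, covered 2 libraries of each of 3 cultures, named RANKL, ENRI and WENRC and labelled as M cell, enterocyte and intestinal stem cell. H3K27me3, a mark laid down by Polycomb repressive complexes, was assayed by ChIP-seq, with 2 libraries from RANKL and 1 from WENRC. The mouse strain, age, culture media and culture times are not given in the sources used here, and the culture names are used as they stand. ENRI and WENRC libraries 1 and 2 carry the number of the mouse they came from. The RANKL libraries carry only a replicate number, so nothing states that they came from separate animals, and p-values that rest on them may measure technical spread.

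GRO-seq values are the authors' normalized log2 values, and their depth is unknown. A gene is said to rise or fall where its FDR, the Benjamini-Hochberg adjusted p of limma over 16563 genes, was under 0.05. Replicates were closest in RANKL, where the difference between libraries had an SD over genes of 0.220 on the log2 scale, against 0.421 in WENRC and 0.699 in ENRI. The M cell label was checked against the markers Spib, Tnfrsf11a, Ccl9 and Ccl20. Each was called higher in RANKL than in ENRI and than in WENRC. Sox8 was called higher as well, but it passed the filter on low values only through RANKL, so it gives no check. The RANKL libraries are named in the file header as reads of a repeat sequencing, and this repeat run cannot be told apart from the RANKL culture. In bulk libraries, a change in the share of cells of a type and a change in transcription per cell cannot be told apart either.

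Transcription of 7 of the 9 genes was higher in RANKL than in ENRI (Gp2, Tnfaip2, Rac2, Prnp, Anxa5, Marcksl1 and Scg5), and 0 were called lower in limma, also at an unadjusted p under 0.05. The authors' deposited table called 6 of these higher (all but Anxa5) and Clu lower, where it called 19.6% of all tested genes. Over all tested genes, 10.4% were called higher and 10.5% lower. Against WENRC, Gp2, Tnfaip2, Rac2, Prnp and Marcksl1 were higher and 0 genes lower in limma, also at an unadjusted p under 0.05, where 8.53% of all tested genes were called higher and 3.62% lower. The share of those calls that were higher in RANKL was 70.2%, and 53.3% with each library recentred on its upper quartile, where the same count of 5 of the 9 was called. The authors' deposited table added Anxa5 as higher and Clu as lower, where it called 27.8% of all tested genes. Aif1 and Clu were called in neither comparison in limma. The median change of the 9 genes was 3.16 against ENRI and 2.70 against WENRC on the log2 scale, while that of all tested genes was -0.00 and -0.01. Both comparisons share the RANKL libraries. The 2 libraries of RANKL did not overlap those of ENRI for 8 of the 9 genes (64.7% of all tested genes), nor those of WENRC for 7 of the 9 (68.6%). The counts rested on both RANKL libraries: without RANKL 1, only Gp2 and Tnfaip2 were called against ENRI, without RANKL 2 only Tnfaip2, and in either case 0 of the 9 were called against WENRC in limma. Leaving out WENRC 1 or WENRC 2 brought the count against WENRC to 3 (Gp2, Tnfaip2 and Rac2), and leaving out either ENRI library gave 6 higher and 1 lower (Clu).

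**Figure D1:**
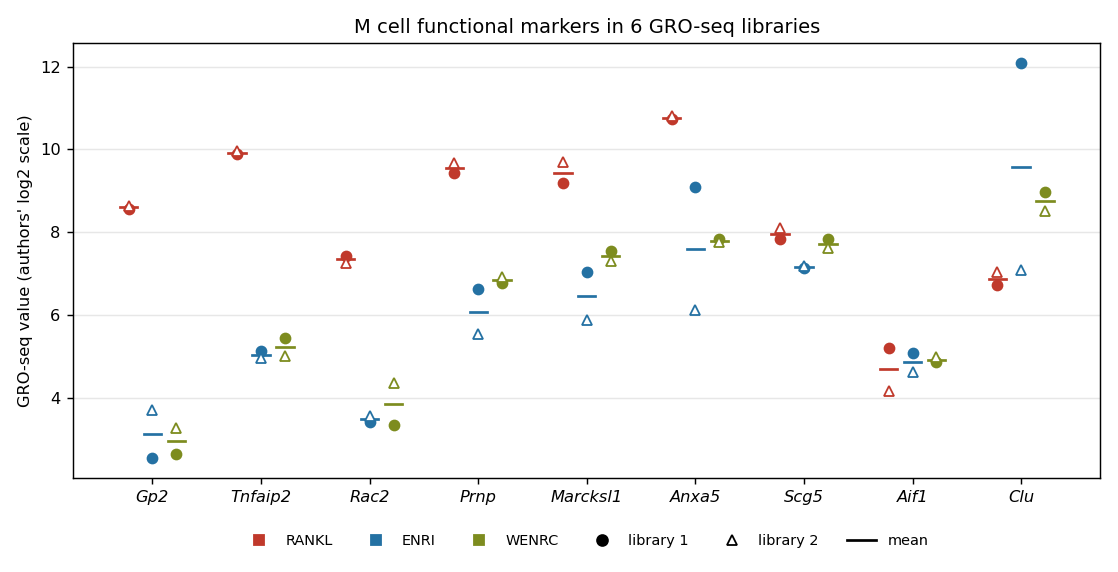
GRO-seq values of the 9 genes in each of the 6 libraries on the authors' log2 scale, with library 1, library 2 and the mean of each culture marked. Gp2, Tnfaip2, Rac2, Prnp, Marcksl1 and Anxa5 lie highest in both RANKL libraries, while Clu and Anxa5 are spread widely between the ENRI libraries.

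**Figure D2:**
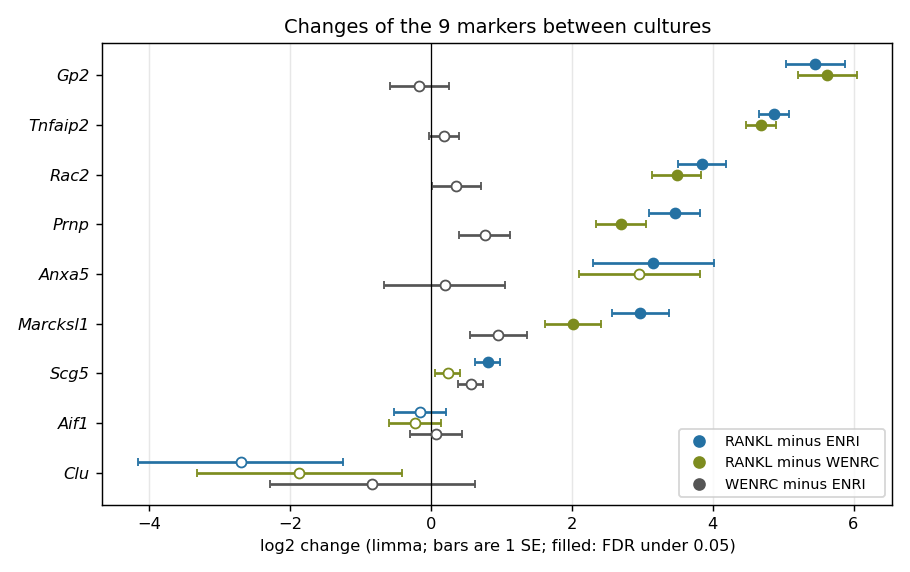
Changes of the 9 genes on the log2 scale for RANKL minus ENRI, RANKL minus WENRC and WENRC minus ENRI, with bars of 1 standard error from limma and filled points where the FDR was under 0.05. Gp2 and Tnfaip2 lie farthest to the right in both RANKL comparisons, and no point of WENRC minus ENRI is filled.

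Gp2, the glycoprotein of the apical membrane, had the steepest pattern. Gp2 (NM_025989, mm9 chr7:126586058-126602786, minus strand) had log2 values of 8.56 and 8.65 in RANKL, 2.56 and 3.72 in ENRI and 2.66 and 3.29 in WENRC. The RANKL libraries lay far above the other 4, of which only ENRI 2 reached the floor of the filter, a value of 10 before log2. The difference from ENRI was 5.46 (SE 0.42, limma FDR 0.00215) and that from WENRC 5.62 (SE 0.42, limma FDR 0.00209), or 44.0-fold and 49.3-fold on this scale. These were the 9th and 7th largest rises among the 16563 genes. The deposited values of weakly transcribed genes look drawn together, a trait inferred from the values, so these folds may understate the difference. In the authors' deposited table the log2 fold changes of Gp2 were 7.64 (adjusted p 0.00393) and 9.79 (adjusted p 5.79e-19). Those folds rest on ENRI and WENRC libraries mostly under the floor, and which scale is nearer the true difference was not tested.

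Measured per kilobase of gene, Gp2 was not among the most transcribed genes even in RANKL. Its mean log2 value per kilobase was 4.54 in RANKL, above 69.4% of tested genes, and -0.92 in ENRI and -1.09 in WENRC, above 9.70% and 9.64%. Gp2 thus stood near the bottom of the tested genes in ENRI and WENRC and in their upper middle in RANKL. It passed the filter through the RANKL libraries and ENRI 2, so its low ranks in ENRI and WENRC follow in part from the filter. Of 5 tested genes for proteins with a zona pellucida domain, Gp2 was the only one called in either RANKL comparison in limma. Umod, its neighbour on chromosome 7 and the gene for uromodulin, stayed under the floor, with log2 values from 2.46 to 3.15 in the 6 libraries, and was not tested. Dmbt1, a mucosal scavenger glycoprotein, had 12.43 and 12.57 in RANKL, 10.62 and 12.03 in ENRI and 11.52 and 9.49 in WENRC, with differences of 1.18 (limma FDR 0.291) and 1.99 (limma FDR 0.132).

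The 5 genes whose centred log2 values over the 6 libraries were most like those of Gp2 were Erv3, Trabd2b, Ncf4, Col13a1 and Itgb8. Their root mean square difference from Gp2 ran from 0.268 for Erv3 to 0.398 for Itgb8, over 6 libraries. Ncf4, a cytosolic subunit of the phagocyte NADPH oxidase, had 8.39 and 8.36 in RANKL, 2.49 and 2.88 in ENRI and 2.60 and 3.47 in WENRC. Itgb8, an integrin beta chain that binds latent TGF-beta, lay higher throughout, at 10.41 and 10.45 in RANKL and between 5.15 and 6.11 in the other libraries. The likeness is a description over libraries chosen by culture, with no test.

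Tnfaip2, a protein with a Sec6 domain that works with the small GTPase Ral in forming membrane protrusions, had the lowest FDR of the 9 genes. Tnfaip2 (NM_009396, mm9 chr12:112680872-112693229, plus strand) had log2 values of 9.88 and 9.96 in RANKL, 5.13 and 4.98 in ENRI and 5.46 and 5.02 in WENRC. RANKL lay far above the other 4 libraries, among which ENRI and WENRC overlapped. The rise was 4.87 over ENRI (SE 0.21, limma FDR 0.000963) and 4.68 over WENRC (SE 0.21, limma FDR 0.00123), the 6th smallest p-value in each comparison. Per kilobase, Tnfaip2 moved from above 22.5% of tested genes in ENRI to above 94.0% in RANKL. The genes most like it were Calcb, Spib and Ccdc108, and Spib, the transcription factor needed for M cell maturation, differed from it by a root mean square of 0.301.

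No subunit of the exocyst, which tethers secretory vesicles to the plasma membrane, was called in either RANKL comparison in limma. Of 14 tested genes of the list of exocyst subunits, Sec6 domain proteins and Ral, 3 rose against ENRI and 0 fell: Tnfaip2, Rala and Ralb. Rala rose by 0.99 against ENRI (limma FDR 0.0130) and by 1.07 against WENRC (limma FDR 0.0143), and Ralb by 0.74 against ENRI (limma FDR 0.0467). The authors' deposited table called 2 of the 14 higher against ENRI, and 4 higher and 1 lower against WENRC. The median change of the list was 0.17 against ENRI and 0.25 against WENRC. Exoc3l4, the nearest gene to Tnfaip2 at 10981 bp, had differences of -0.34 (limma FDR 0.499) and 0.91 (limma FDR 0.131).

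The 300 bases around the start site (250 before and 50 after, RefSeq, GRCm38.p6) are shown for the genes of steepest and flattest pattern and for 3 that rose, because their content of CG dinucleotides, in capitals, differs widely. Windows for 7 of the 9 genes were matched by symbol. The windows of Gp2 (chr7:119459223-119459522, minus strand) and Aif1 (chr17:35176003-35176302, minus strand) hold 4 and 1 CG dinucleotides, and those of Tnfaip2 (chr12:111442411-111442710, plus strand), Prnp (chr2:131909678-131909977, plus strand) and Marcksl1 (chr4:129513331-129513630, plus strand) hold 23, 22 and 22.
Gp2: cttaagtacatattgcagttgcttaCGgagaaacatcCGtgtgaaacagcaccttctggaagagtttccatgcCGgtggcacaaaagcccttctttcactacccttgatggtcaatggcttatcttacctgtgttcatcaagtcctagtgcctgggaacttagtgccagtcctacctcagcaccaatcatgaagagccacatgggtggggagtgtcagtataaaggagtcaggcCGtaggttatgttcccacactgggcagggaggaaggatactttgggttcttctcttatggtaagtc
Aif1: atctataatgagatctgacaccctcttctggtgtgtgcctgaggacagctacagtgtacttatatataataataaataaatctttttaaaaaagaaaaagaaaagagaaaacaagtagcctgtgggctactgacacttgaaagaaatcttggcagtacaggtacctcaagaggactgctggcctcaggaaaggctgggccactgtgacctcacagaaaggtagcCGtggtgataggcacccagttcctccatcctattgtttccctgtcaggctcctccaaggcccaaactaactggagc
Tnfaip2: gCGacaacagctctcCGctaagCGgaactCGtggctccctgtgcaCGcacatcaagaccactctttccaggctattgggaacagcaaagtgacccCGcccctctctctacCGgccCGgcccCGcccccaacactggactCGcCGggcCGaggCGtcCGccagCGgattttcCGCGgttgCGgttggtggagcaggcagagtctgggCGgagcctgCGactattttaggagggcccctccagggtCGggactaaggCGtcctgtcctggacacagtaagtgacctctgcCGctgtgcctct
Prnp: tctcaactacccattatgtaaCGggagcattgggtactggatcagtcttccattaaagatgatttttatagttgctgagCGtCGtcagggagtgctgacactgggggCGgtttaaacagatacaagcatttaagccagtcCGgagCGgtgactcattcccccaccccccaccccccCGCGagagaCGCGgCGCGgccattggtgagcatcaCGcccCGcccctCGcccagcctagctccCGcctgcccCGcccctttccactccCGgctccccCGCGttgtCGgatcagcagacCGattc
Marcksl1: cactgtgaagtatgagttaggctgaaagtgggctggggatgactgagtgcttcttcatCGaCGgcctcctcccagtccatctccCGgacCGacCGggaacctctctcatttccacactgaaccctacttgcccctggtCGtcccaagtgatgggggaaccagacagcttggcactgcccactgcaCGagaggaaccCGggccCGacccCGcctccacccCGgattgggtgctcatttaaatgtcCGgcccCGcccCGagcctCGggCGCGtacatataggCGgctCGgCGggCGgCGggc
The GC content was 48.3% for Gp2, 45.0% for Aif1, 64.3% for Tnfaip2, 60.0% for Prnp and 63.7% for Marcksl1, against a median of 52.7% over 32851 windows. Anxa5 held 16 CG dinucleotides and Scg5 held 9. The CG-poor windows thus included both the gene with the largest rise and a gene that was not called in any comparison.

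Letters of 6 motifs were searched on both strands of the 7 windows. GAGGAAGT (Ets type, in 3.20% of all windows), AAGGTCA (Esrr type, 4.72%), ACAATGG (Sox type, 3.66%), the longer NF-kB motif (1.63%) and the shorter GGGNNTTCC (NF-kB type, 5.82%), which overlap in part, were found in 0 of the 7. TGANTCA (AP-1 type, its own reverse complement, 7.81%) was found in Prnp alone, as TGACTCA at bases -102 to -96 from the start site. A match is a run of letters and not a bound site, and its absence says nothing of sequence outside the window.

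Rac2, the Rac GTPase typical of blood cells that takes part in phagocytosis and in the NADPH oxidase, was transcribed more in RANKL than in either other culture. Rac2 (NM_009008, mm9 chr15:78389599-78403213, minus strand) had log2 values of 7.42 and 7.27 in RANKL, 3.43 and 3.56 in ENRI and 3.35 and 4.37 in WENRC. Both RANKL libraries lay well above the rest, and the WENRC pair spanned the ENRI pair. The rise was 3.85 over ENRI (SE 0.34, limma FDR 0.00293) and 3.49 over WENRC (SE 0.34, limma FDR 0.00461). The closest patterns were those of Mphosph8, Nfatc4 and Sox8, the last at a root mean square difference of 0.267.

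The broadly expressed paralog Rac1 had log2 values of 9.79 and 9.87 in RANKL, 10.08 and 9.90 in ENRI and 9.74 and 9.51 in WENRC, with differences of -0.16 (limma FDR 0.483) and 0.20 (limma FDR 0.425). Rac3 had -0.65 (limma FDR 0.0897) and -0.85 (limma FDR 0.0626).

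Prnp, the cellular prion protein, a surface glycoprotein reported as an uptake receptor on M cells, rose in RANKL. Prnp (NM_011170, mm9 chr2:131735664-131764172, plus strand) had log2 values of 9.42 and 9.68 in RANKL, 6.64 and 5.54 in ENRI and 6.78 and 6.93 in WENRC. RANKL lay above both, and WENRC above both ENRI libraries. The rise was 3.46 over ENRI (SE 0.36, limma FDR 0.00384) and 2.70 over WENRC (SE 0.36, limma FDR 0.00961). The readthrough gene Prn overlaps Prnp on the same strand and its pattern differed from that of Prnp by a root mean square of only 0.044, so the reads of these genes cannot be told apart. Prnd, the downstream gene for doppel, stayed under the floor, at 2.57 and 2.22 in RANKL. Sprn, the gene for shadoo, differed by -0.02 (limma FDR 0.958) and -0.38 (limma FDR 0.356).

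Erv3, the listed gene next to Prnp on chromosome 2, at 50181 bp and on the opposite strand, was also the tested gene most like Gp2. Erv3 had log2 values of 8.21 and 8.43 in RANKL, 2.43 and 2.81 in ENRI and 2.42 and 3.14 in WENRC. It rose by 5.70 over ENRI (limma FDR 0.00104) and by 5.54 over WENRC (limma FDR 0.00136). Erv3 lay under the floor in every ENRI and WENRC library. It therefore passed the filter only through RANKL, and its rise is not set beside that of Prnp.

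Marcksl1, a MARCKS family protein that binds actin and membranes, was the most strongly transcribed of the 9 per kilobase in RANKL and WENRC, while in ENRI the mean of Clu was higher. Marcksl1 (NM_010807, mm9 chr4:129190825-129193225, plus strand) had log2 values of 9.18 and 9.70 in RANKL, 7.05 and 5.88 in ENRI and 7.54 and 7.30 in WENRC. The cultures did not overlap, and the order was RANKL, WENRC, ENRI. The rise was 2.97 over ENRI (SE 0.40, limma FDR 0.00738) and 2.02 over WENRC (SE 0.40, limma FDR 0.0287). Its mean log2 value per kilobase was 8.18 in RANKL, above 98.8% of tested genes, and 5.20 in ENRI, already above 81.4%. At 2400 bp Marcksl1 was the shortest of the 9 genes, and the bearing of length on this rank was not tested. Against WENRC the call was lost without WENRC 1, at a difference of 2.14, or without WENRC 2, at 1.90.

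Among the 9 genes, Marcksl1 and Prnp had the closest pair of patterns, with a root mean square difference of 0.317 over the 6 libraries. Hdac1, a histone deacetylase gene, lies 123 bp beyond Marcksl1 on the opposite strand and rose by 1.05 over ENRI (limma FDR 0.0202), and had a difference of 0.58 from WENRC (limma FDR 0.127). Marcks, the paralog of Marcksl1, had differences of 0.93 (limma FDR 0.197) and 0.37 (limma FDR 0.645).

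Anxa5, which binds phosphatidylserine in the presence of calcium, was highest in RANKL but varied most where it was low. Anxa5 (NM_009673, mm9 chr3:36347846-36374809, minus strand) had log2 values of 10.73 and 10.80 in RANKL, 9.08 and 6.13 in ENRI and 7.85 and 7.76 in WENRC. Neither other culture reached RANKL, but the ENRI libraries lay 2.96 apart, more than those of 99.6% of tested genes, and on either side of WENRC. The rise over ENRI was 3.16 (SE 0.86, limma FDR 0.0499), just inside the threshold. The difference from WENRC was 2.96 (SE 0.86, limma FDR 0.0806), which was not called in the fit of all 6 libraries. The shared error of that fit carries the ENRI gap into this comparison. In the fit of only the 4 libraries compared, Anxa5 was called against WENRC (limma FDR 2.36e-05), where 5194 of all tested genes were called. In the same kind of fit it was not called against ENRI (limma FDR 0.105). Over 14 other settings of the analysis, Anxa5 was called in 5 against each culture, and the authors' deposited table gave adjusted p-values of 0.177 against ENRI and 5.77e-87 against WENRC.

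Of 12 tested annexins, Anxa5 alone rose against ENRI, while Anxa2 and Anxa13 fell by 1.21 and 1.36 (limma FDR 0.0122 and 0.0141). Against WENRC 0 of the 12 were called in limma, where 2 were higher and 1 lower at an unadjusted p under 0.05, and the authors' deposited table called 2 higher and 4 lower. The median change of the annexins was -0.58 against ENRI and -0.28 against WENRC. Anxa1, a phospholipid-binding annexin linked to epithelial repair, had 5.06 and 5.05 in RANKL, 10.35 and 5.88 in ENRI and 8.63 and 9.49 in WENRC, lowest in RANKL where Anxa5 was highest, and was called in neither comparison in limma (limma FDR 0.154 and 0.108).

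**Figure D3:**
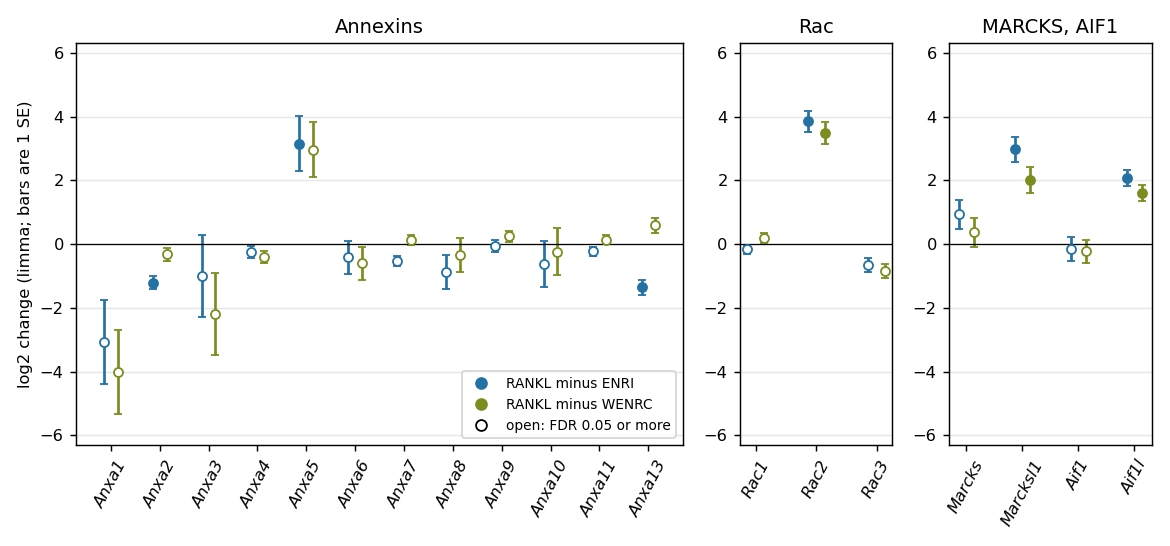
Changes of annexins, of Rac GTPases, and of MARCKS and AIF1 family genes on the log2 scale, for RANKL minus ENRI and RANKL minus WENRC, with bars of 1 standard error from limma and open points where the FDR was 0.05 or more. Anxa5, Rac2 and Marcksl1 lie above their paralogs, whereas Aif1 lies near 0 and Aif1l above it.

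Aif1, a calcium-binding actin bundler known as a macrophage protein and reported in M cells, was not called in any comparison. Aif1 (NM_019467, mm9 chr17:35307937-35312946, minus strand) had log2 values of 5.22 and 4.19 in RANKL, 5.09 and 4.64 in ENRI and 4.86 and 5.01 in WENRC. The RANKL pair spanned the other 4 libraries, and its gap of 1.04 was larger than that of 99.9% of tested genes in RANKL. The differences were -0.16 from ENRI (SE 0.37, limma FDR 0.790) and -0.23 from WENRC (SE 0.37, limma FDR 0.733). With errors of this size, an absence of change is not shown. The related gene Aif1l, which also codes for an actin-binding protein, rose by 2.08 over ENRI (limma FDR 0.00485) and 1.61 over WENRC (limma FDR 0.0130), from log2 values of 4.50 and 4.23 in ENRI and 4.60 and 5.06 in WENRC to 6.55 and 6.33 in RANKL.

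Because Aif1 and Rac2 are also genes of macrophages, markers of macrophages and dendritic cells were read beside them. Of 14 markers named, 13 were in the table and 10 were tested, and 0 were called in either RANKL comparison in limma. At an unadjusted p under 0.05, 0 differed from ENRI and 1 was lower than in WENRC, as in the authors' deposited table. Their summed log2 level was 9.58 to 9.69 in RANKL, 9.36 to 9.62 in ENRI and 9.87 to 9.89 in WENRC. Laptm5, Itgax and Spi1 stayed under the floor in the libraries. Csf1r, the macrophage colony-stimulating factor receptor, was among the genes most like Aif1, with 7.50 and 6.78 in RANKL, 7.51 and 6.82 in ENRI and 7.32 and 7.26 in WENRC.

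Scg5, a chaperone of the prohormone convertase Pcsk2, had the smallest rise of the genes called. Scg5 (NM_009162, mm9 chr2:113616470-113669248, minus strand) had log2 values of 7.84 and 8.10 in RANKL, 7.13 and 7.20 in ENRI and 7.85 and 7.61 in WENRC. RANKL lay above ENRI and overlapped WENRC. The difference from ENRI was 0.81 (SE 0.18, limma FDR 0.0279) and that from WENRC 0.24 (SE 0.18, limma FDR 0.424). The call against ENRI was lost with the replicate number as a block (limma FDR 0.0513) and in the fit of the 4 libraries alone (limma FDR 0.0608). Of 8 tested genes of the regulated secretory pathway, Scg5 was the only one called against ENRI and Chga, a granin of endocrine granules, the only one called against WENRC (0.89, limma FDR 0.0315) in limma. The authors' deposited table called 2 of the 8 higher in each of these comparisons.

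Arhgap11a, 2402 bp from Scg5 on the same strand, rose by 0.83 over ENRI (limma FDR 0.0202), about as much as Scg5. It had a difference of 0.16 from WENRC (limma FDR 0.566).

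Clu, the secreted chaperone clusterin, was the only one of the 9 whose mean was well below the other cultures in RANKL. Clu (NM_013492, mm9 chr14:66587320-66600385, plus strand) had log2 values of 6.73 and 7.04 in RANKL, 12.08 and 7.08 in ENRI and 8.98 and 8.52 in WENRC. RANKL lay below WENRC in both libraries and below ENRI 1 by far, but only just below ENRI 2. The differences were -2.70 from ENRI (SE 1.45, limma FDR 0.235) and -1.87 from WENRC (SE 1.45, limma FDR 0.449), neither called. The ENRI gap of 5.0 was larger than that of 99.96% of tested genes, and the shared error of the fit carries it into every comparison of Clu. Without ENRI 1 the difference from WENRC was called (limma FDR 0.000726) while that from ENRI was -0.20 (limma FDR 0.537). Without ENRI 2 both were called, at -5.20 from ENRI (limma FDR 4.45e-05) and at limma FDR 0.000487 from WENRC. The authors' deposited table gave log2 fold changes of -5.03 (adjusted p 0.0470) and -2.29 (adjusted p 4.34e-11).

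The gap between the ENRI libraries was shared by other genes. A list for injured or fetal-like epithelium, which holds Clu, had 9 tested genes. All 9 were higher in ENRI 1 than in ENRI 2, against 51.6% of all tested genes. The gap was more than 2 on the log2 scale for 5 of them (Clu, Anxa1, Anxa3, Ly6a and Ctgf), against 1.14% of all tested genes. In limma, 1 of the 9 was lower in RANKL than in ENRI, 1 lower than in WENRC, and 0 were higher. The authors' deposited table called 4 lower than in ENRI, 8 lower than in WENRC and 0 higher. Ly6a, a surface protein of the regenerating gut epithelium, had 8.25 in ENRI 1 and 4.07 in ENRI 2, and 7.01 and 7.09 in WENRC. Of 12 annexins, 10 were higher in ENRI 1, and 4 by more than 2, where Anxa1 and Anxa3 are counted in both lists. All 9 genes of the enterocyte list were lower in ENRI 1 than in ENRI 2, with a median gap of -0.59. The genes whose centred values were most like those of Clu were Fn1, Ctgf and Basp1, at root mean square differences of 0.432, 0.467 and 0.482. Mouse and any difference of date between the ENRI libraries cannot be told apart, and their part in the gap was not tested.

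**Figure D4:**
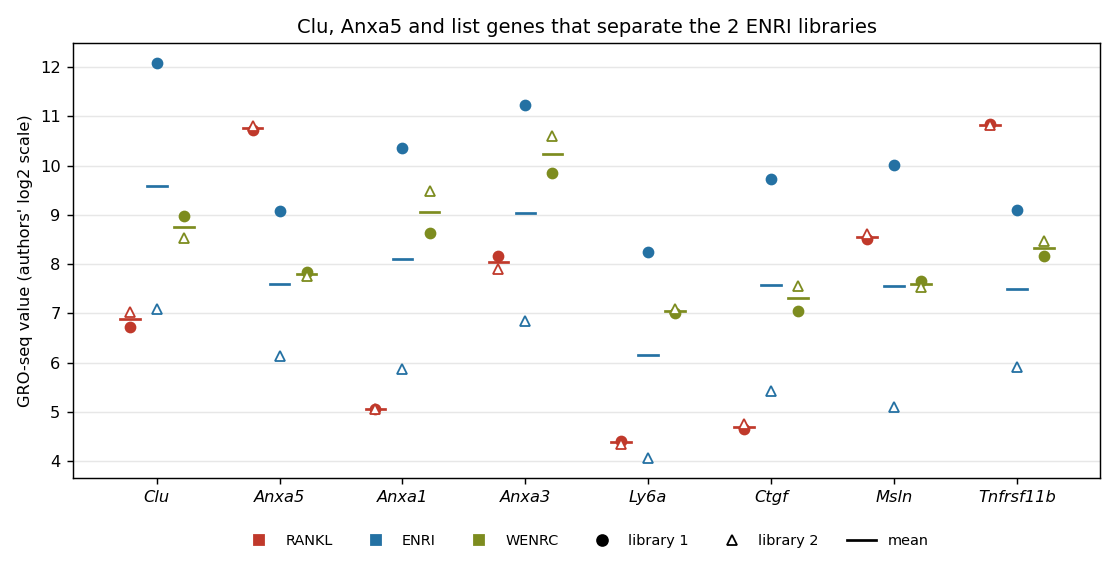
GRO-seq values on the authors' log2 scale in the 6 libraries for Clu, Anxa5 and 6 list genes, which were chosen for display after their values were seen. ENRI 1 lies far above ENRI 2 for each gene shown, while the RANKL libraries lie close together.

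Between WENRC and ENRI, 0 of the 9 genes were called in limma, where 14.6% of all tested genes were called, 4.85% as higher in WENRC and 9.74% as lower. In the fit of these 4 libraries alone, 124 of all tested genes were called with the mouse as a replicate block and 0 without it (4074 at an unadjusted p under 0.05), against 2416 in the fit of 6 libraries, and 0 of the 9 genes were called in each. Of the 2416, 33.2% were higher in WENRC, and 54.1% of calls were with each library recentred on its upper quartile. The authors' deposited table also called 0 of the 9, where it called 12.5% of all tested genes, and 1 (Scg5) had an unadjusted p under 0.05 in limma. The largest differences were 0.96 for Marcksl1 (limma FDR 0.160), -0.83 for Clu (limma FDR 0.747) and 0.76 for Prnp (limma FDR 0.202). Scg5 had 0.57 and the lowest FDR of the 9 (limma FDR 0.0852). Marcksl1, Prnp and Scg5 were higher in both WENRC libraries than in both ENRI libraries, which was so of 3 of the 9 genes, while 58.5% of all tested genes did not overlap. Without ENRI 1, Marcksl1, Prnp, Anxa5 and Clu were called higher in WENRC, and without ENRI 2, Anxa5 and Clu were called lower, so that these calls turned with the ENRI library kept.

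Other genes of the M cell programme were read from lists. Of 9 tested regulators, 7 rose against each culture, with Traf6 and Tnfrsf11b the exceptions. Sox8, among those that rose, passed the filter only through the RANKL libraries. Traf6, an adaptor of RANK signalling, had differences of 0.61 (limma FDR 0.0525) and 0.23 (limma FDR 0.421). Tnfrsf11b, the decoy receptor for RANKL, had 10.85 and 10.82 in RANKL, 9.10 and 5.91 in ENRI and 8.17 and 8.48 in WENRC, a spread like that of Anxa5, to which it was the second most alike gene. Of 8 other tested M cell markers, 5 rose against ENRI and 6 against WENRC, and 0 fell. Msln, the gene for mesothelin, was in neither count, with 8.50 and 8.62 in RANKL, 10.02 and 5.10 in ENRI and 7.66 and 7.53 in WENRC. Pglyrp1 was in neither count as well, with differences of 0.39 (limma FDR 0.520) and -0.14 (limma FDR 0.862). Umod, C5ar1 and S100a4, also among the 11 markers listed, stayed under the floor in every library and were not tested.

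Markers of other cell types moved between the cultures as well. Against ENRI, 5 of 9 enterocyte genes fell and 4 of 7 stem cell genes rose in RANKL. Against WENRC, 4 of 9 enterocyte genes and 4 of 7 goblet cell genes rose, while of 7 stem cell genes 1 rose and 1 fell, the latter being Lgr5, a Wnt-dependent stem cell receptor, which fell by 3.02 (limma FDR 0.00166). Tuft cell markers rose for 3 of 5 tested against ENRI and 2 of 5 against WENRC, and Paneth cell markers for 2 of 6 against each. Their part in the values of the 9 genes was not tested.

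H3K27me3 was compared between RANKL, whose 2 libraries the authors pooled, and the single WENRC library, so there is no replicate check and no test here. The fold of a region is the authors' ratio of tags, and the tables list only regions where the cultures differed. Gp2 and Tnfaip2 were the only ones of the 9 genes for which a region was named, and each had regions in both directions. Over all tested genes, 32.3% had at least 1 region with more of the mark in RANKL, 23.3% at least 1 with more in WENRC and 14.5% both, so the 2 of 9 genes in each count are not set apart from that background.

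For Gp2, 4 regions had more of the mark in RANKL and 1 had more in WENRC. The region higher in WENRC (mm9 chr7:126606015-126606515) lay upstream of Gp2, at -3479 bp from its start site and at the 3′ end of the neighbouring Umod gene, with 21.6 scaled tags in WENRC and 4 in RANKL. Its fold of 5.40 was above that of 88.9% of WENRC-higher regions, whose median was 3.30. Of the regions higher in RANKL, 1 lay in intron 9 of 10 (mm9 chr7:126589020-126589520), with 20 tags in RANKL and 7.20 scaled tags in WENRC, a fold of 2.78. The other 3 were intergenic, beyond the 3′ end of Gp2: chr7:126516903-126517855 with a fold of 3.42 (40 against 11.7 tags), chr7:126514607-126515107 with 2.92 (21 against 7.20) and chr7:126490751-126491727 with 2.71 (39 against 14.4), 85407 to 111547 bp from the start site. The region nearest the start of Gp2 was thus the one with less of the mark in RANKL, and those within and beyond the gene had more.

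Tnfaip2 had 1 region of each direction, both in intron 3 of 11 and 167 bp apart. The first (mm9 chr12:112684514-112685014) had 24 tags in RANKL and 8.10 scaled tags in WENRC, a fold of 2.96 toward RANKL. The next (mm9 chr12:112685181-112685681) had 21.6 scaled tags in WENRC and 7 in RANKL, a fold of 3.09 toward WENRC. Tags this few, and opposite directions this close together, give no direction for the gene as a whole.

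**Figure D5:**
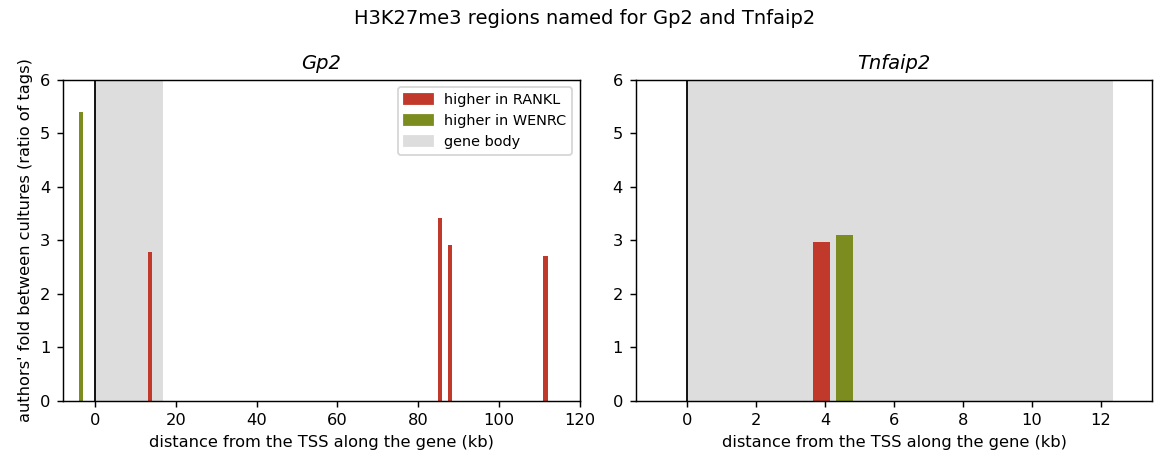
The authors' fold between cultures for each H3K27me3 region named for Gp2 or Tnfaip2, against the distance from the start site along the gene in kb, with the gene body in grey. For Gp2, where bars are drawn wider than the regions, the WENRC-higher region stands before the start site and the 4 RANKL-higher regions after it, and for Tnfaip2 both directions stand side by side in the gene body.

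A further region lay near Rac2 without being named for it. It was higher in WENRC (mm9 chr15:78383629-78384129), 5470 bp beyond the 3′ end of Rac2, with 16.2 scaled tags in WENRC and 3 in RANKL, a fold of 5.40, and the authors' annotation named it for Sstr3, a somatostatin receptor gene. Marcksl1, Anxa5, Aif1, Scg5, Clu and Prnp had no listed region within 10 kb.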

How the data were processed

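GRO-seq was analysed in 6 libraries (2 each of RANKL, ENRI and WENRC) and H3K27me3 ChIP-seq in 3 (2 RANKL, 1 WENRC). Per the file headers, the authors counted GRO-seq reads over whole RefSeq genes of mm9 with HOMER. The deposited expression values are log2 and normalized between libraries, with a transform inferred from the values, in which weakly transcribed genes are drawn together. Strand handling is not given in the sources used here. The submitters' processing notes name Bowtie2 2.3.4.1, HOMER, DESeq2 and mm9. For every pair of cultures, the deposited table also holds the authors' log2 fold change with its p-value before and after adjustment, which were read with signs turned to first-named minus second-named. Per the file headers, H3K27me3 regions were called with HOMER in one culture against the other. The deposited RANKL tags are whole counts, the WENRC tags a signal scaled by the authors, and the fold a ratio of tags. The deposited tables also give the authors' score, size in bp and distance to the start site of each region as annotations.

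The values were tested as deposited, with no pseudocount, by limma 3.58.1 in R 4.3.3, with 1 fit of 3 group means over 6 libraries, a variance trend, two-sided p-values and Benjamini-Hochberg adjustment over 16563 genes. Genes were tested where at least 2 libraries reached 10 before log2. Tables were made with Python 3.11.15, pandas 2.3.3 and numpy 2.4.6. All columns with values of single libraries could be assigned. The fit was tested on simulated data with the spread of the WENRC pair in all 6 libraries. That test does not cover the unequal spreads of the 3 cultures. GRO-seq depth is unknown, so no counting interval is given, and the number of libraries limits precision.

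ENRI and WENRC libraries with the same number come from the same mouse, per the labels, and their replicate differences had a correlation of 0.41 over 16563 genes. RANKL numbers are not mouse numbers, and the same correlation was -0.20 with ENRI and -0.32 with WENRC. The mouse as a block was an alternative, as were other filters, scalings, variance models, left-out libraries and the authors' own test. All 9 genes were named, with list genes that were called or on which a count turned, the 5 genes most like Gp2 and the 3 most like each other gene, and the nearest neighbours. The genes and lists were chosen with earlier results of these data known. The result of 1 gene list is not reported here.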

Additional observations from a re-analysis of the deposited data

Results flagged for a closer look

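For 5 of the 9 genes, WENRC differed from ENRI in opposite directions in the 2 mice. The share of all tested genes with opposite directions was not counted, so this count does not set the 9 genes apart. For Gp2, both mouse 1 libraries lay under the floor of the filter. The difference of WENRC minus ENRI on the log2 scale was -0.43 in mouse 2 and 0.10 in mouse 1 for Gp2, and 1.63 in mouse 2 and -1.24 in mouse 1 for Anxa5. It was 0.37 in mouse 2 and -0.23 in mouse 1 for Aif1, and 0.80 in mouse 2 and -0.08 in mouse 1 for Rac2. For Clu it was 1.44 in mouse 2 and -3.10 in mouse 1. Each mouse gave 1 library per culture, so these differences between mice were not tested. Mouse and any difference of date cannot be told apart. For Clu and Anxa5 the WENRC libraries lay close together and the ENRI libraries apart.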

How the results depend on the processing

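Gp2, Tnfaip2, Rac2, Prnp, Marcksl1 and Anxa5 kept a higher value in RANKL than in ENRI and WENRC under every setting run, while calls depended on the libraries. Without 1 library at a time, the count of the 9 genes called ran from 1 to 8 for RANKL against ENRI, 0 to 7 against WENRC and 0 to 4 for WENRC against ENRI. The lone RANKL library left in 2 of these fits was assumed to vary like the other cultures. Over all tested genes these counts ran from 64 to 6966, 0 to 5176 and 0 to 6650, beside 3464, 2012 and 2416 with all libraries. In the fit of the 4 libraries compared, the counts were 1925, 5194 and 0, the last with 4074 genes at an unadjusted p under 0.05 in limma. The authors' deposited test called 4604 genes for RANKL against WENRC.

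Without both mouse 1 libraries, a fit whose spread rests on the RANKL pair alone called 10083, 7419 and 8504 genes, and 5 of the 9 between WENRC and ENRI. In it Aif1 differed by 0.069 between RANKL and ENRI and Clu by 1.44 between WENRC and ENRI. The authors' deposited test gave -0.62 for Anxa5 between WENRC and ENRI. With the replicate number as a replicate block over 6 libraries, 1506 genes were called between WENRC and ENRI, and with the mouse as a replicate block over their 4 libraries 124, of which 0 were among the 9 genes. The mouse pairing changed no call among the 9 genes, and the replicate number as a block, which for RANKL names no mouse, changed only that of Scg5 between RANKL and ENRI (limma FDR 0.0513).

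Recentring on the upper quartile gave 1 call between WENRC and ENRI, Scg5 (limma FDR 0.0352), and moved the median of all genes between RANKL and WENRC to -0.12. The share of calls that were higher in RANKL than WENRC then went from 70.2% to 53.3% (58.7% with quantile normalization), and higher in WENRC than ENRI from 33.2% to 54.1% (51.7%). Without 1 library at a time, Aif1 ran from -0.68 to 0.36 against ENRI, from -0.75 to 0.29 against WENRC, and from -0.16 to 0.30 between WENRC and ENRI. Between WENRC and ENRI, Anxa5 ran from -1.28 to 1.67, Clu from -3.33 to 1.67, Gp2 from -0.75 to 0.42, Rac2 from -0.14 to 0.87 and Tnfaip2 from -0.032 to 0.40. Of 7 H3K27me3 regions, 1 had a fold of at least 4 and 3 lay within 5 kb of a start site. The causes were not tested.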

Other observations

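Genes next to the markers were read for local changes. Prrc2a, 6115 bp from Aif1 on the same strand, rose in RANKL by 1.44 over ENRI (limma FDR 0.00912) and by 1.03 over WENRC (limma FDR 0.0301). Lst1, a leukocyte gene at 9094 bp, had differences of 0.59 (limma FDR 0.239) and 0.85 (limma FDR 0.143). At Rac2, the neighbour Sstr3, 14824 bp away, rose by 1.10 over ENRI (limma FDR 0.0145) and by 0.81 over WENRC (limma FDR 0.0461). At Anxa5, the divergent gene 1810062G17Rik, 50 bp away on the opposite strand, had differences of 0.57 (limma FDR 0.363) and 0.10 (limma FDR 0.906). At Clu, Scara3, 14739 bp away, had 0.01 (limma FDR 0.988) and -0.24 (limma FDR 0.600).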
